A study of Mus musculus with 8 samples.

Results

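Wnt proteins are secreted lipid-modified ligands that bind Frizzled receptors together with the co-receptors Lrp5 and Lrp6. In the canonical branch this stops the destruction complex of Axin, Apc and kinases from degrading β-catenin (Ctnnb1), which then enters the nucleus and acts with TCF/LEF factors. In the embryonic cortex Wnt signals come from the cortical hem at the medial edge and from the cortex itself, and they pattern the tissue and regulate the division and differentiation of progenitors. Described here is the H3K4 methylation of 39 such genes in mouse cortex: 19 Wnt ligands, 5 secreted antagonists, 3 R-spondins, 4 surface receptors, 4 cytoplasmic effectors and 4 TCF/LEF factors. Frizzled receptors were not among them. All 39 were found among 21627 protein-coding loci with a unique symbol. A locus was the gene span on GRCm38 (the assembly mm10 represents) plus 10 kb on either side, and its measure was the number of bases that lie under called peaks in each library.

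The study compared whole cortex lysates of mouse embryos at E15.5. The 2 control libraries (WT in the labels) came from Prdm16 flox/flox embryos, which carry floxed Prdm16 alleles and no Cre. The 2 mutant libraries (cKO) came from Emx1Ires-Cre; Prdm16flox/flox embryos. Both groups therefore share the floxed alleles, and the mutants differ by Cre expressed from the Emx1 locus, which is active in progenitors of the dorsal telencephalon. Cells of other origin in the lysate, such as interneurons, vessels and microglia, do not derive from these progenitors. Prdm16 encodes a zinc-finger transcriptional regulator of radial glia. Native chromatin was cut with micrococcal nuclease and precipitated with an H3K4me antibody whose catalogue entry names monomethylation, typical of enhancers and of sequence beside promoters. The comparison asks where the mark differs when Prdm16 is removed. The labels do not say whether replicates came from separate embryos or pools, so p-values measure only the spread between these libraries.

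The 4 lists held between 66476 and 82683 peaks and covered 114 Mb (WT replicate 2), 130 Mb (WT replicate 1), 148 Mb (cKO replicate 1) and 166 Mb (cKO replicate 2). Read depth is unknown, and a list that covers more of the genome gives more covered bases at most loci. Fewer cells of a type that carries the mark and less of the mark per cell cannot be told apart in a lysate. The 9 listed markers of the dorsal telencephalon had a median of 64.0% of the locus covered, and all had peaks. Medians were 8.85% for 8 hem and choroid plexus genes (Folr1 had no peak, and Rspo3 and Wnt3a are also among the 39), 4.004% for 6 meningeal, 5.44% for 7 endothelial and pericyte, 3.90% for 6 microglial, 2.13% for 6 erythroid and 2.22% for 5 liver and muscle genes. The broad peaks over Prdm16 (154 and 144 kb in WT, 171 and 182 kb in cKO) do not check its deletion.

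All 39 loci held a peak in at least 1 library, and 38 of them (97.4%) in all 4, compared with 70.3% of all loci. Rspo2 was the exception, with no peak in WT replicate 2. The median covered share of the 39 loci was 13.6% and 9.91% in WT replicates 1 and 2 and 14.7% and 17.96% in cKO replicates 1 and 2. The median of all loci was 5.16% and 4.14% in WT and 6.34% and 7.14% in cKO. All 39 passed the filter of a mean of 1000 covered bases that 69.1% of all loci passed. A covered share is set per locus length. The flanks are the same for every gene, so the share can still depend on gene length. By role the medians were 25.3% for TCF/LEF factors, 24.3% for cytoplasmic effectors, 17.6% for secreted antagonists, 16.7% for ligands, 9.64% for surface receptors and 5.43% for R-spondins. Members of a role differed widely: cytoplasmic effectors ranged from 7.44% to 49.2%, TCF/LEF factors from 8.63% to 27.7%, antagonists from 5.02% to 52.7% and ligands from 3.21% to 47.9%. Axin1, Apc and Tcf7 lay below the ligand median.

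**Figure D1:**
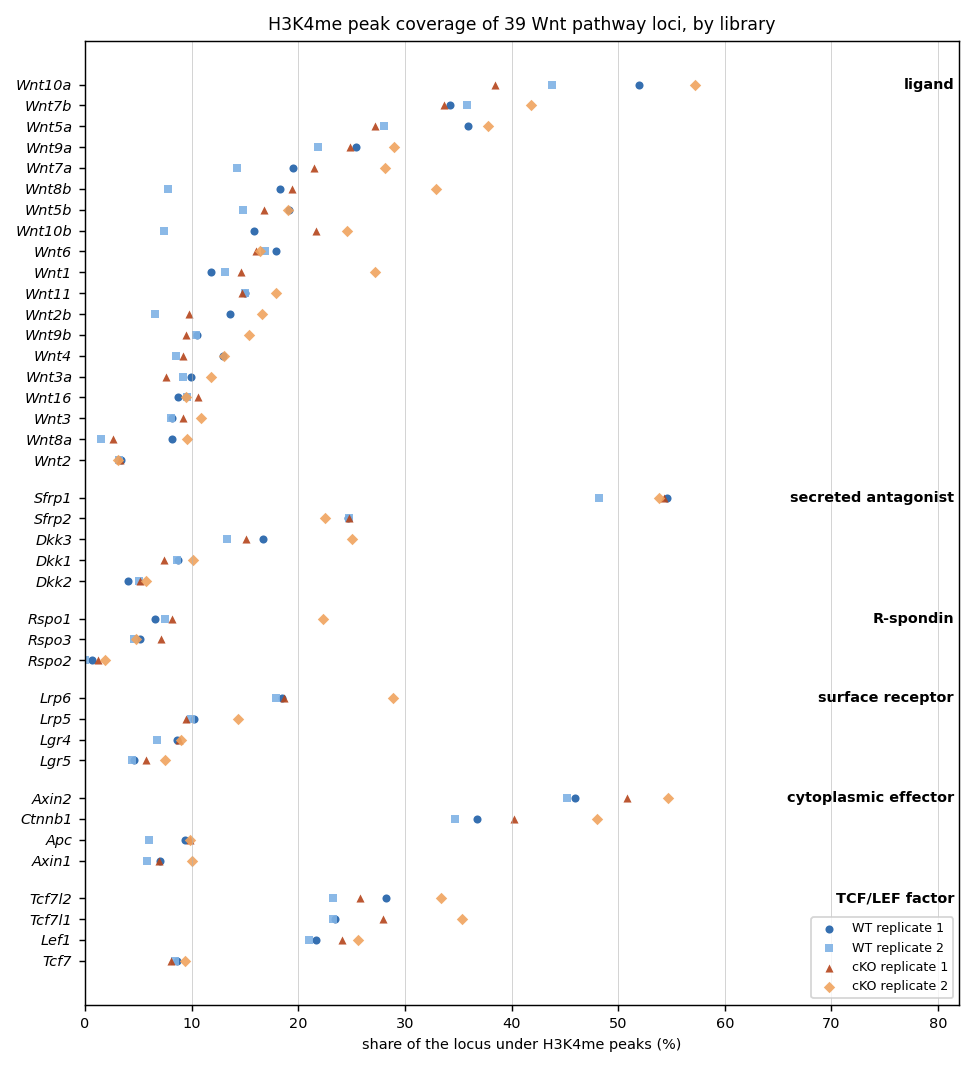
Share of each of the 39 loci (gene plus 10 kb on either side) under H3K4me peaks, in percent on the horizontal axis. Each point is 1 library, with blue for the WT and orange to red for the cKO libraries, and genes are grouped by role and ordered by their mean. Sfrp1, Axin2 and Wnt10a lie furthest to the right (means of 52.7%, 49.2% and 47.9%) and Rspo2 furthest to the left (0.922%).

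Among the ligands the most covered locus was Wnt10a, which encodes a canonical Wnt of epithelial appendages (chromosome 1, 74792019 to 74804176). Of its 32.2 kb locus it had 16.7 and 14.1 kb under peaks in WT, against 12.4 and 18.4 kb in cKO, always given with replicate 1 first. The 2 cKO libraries were the lowest and the highest, so the genotypes overlapped. Wnt7b, a ligand made by cortical neurons (chromosome 15, 85535437 to 85581821), had 22.7 and 23.8 kb under peaks in WT, against 22.3 and 27.8 kb in cKO, of a 66.4 kb locus. Its relative Wnt7a, expressed in the ventricular zone (chromosome 6, 91363981 to 91411353), had 13.2 and 9.58 kb under peaks in WT, against 14.5 and 19.0 kb in cKO, of a locus of nearly the same length (67.4 kb). The mean share was 36.4% ± 3.76 for Wnt7b and 20.8% ± 5.76 for Wnt7a (SD, n = 4 libraries), and Wnt7b exceeded Wnt7a in every library. Wnt5a, a mostly non-canonical ligand (chromosome 14, 28504543 to 28527448), had 15.4 and 12.05 kb under peaks in WT, against 11.7 and 16.2 kb in cKO. Its paralogue Wnt5b had 25.4 and 19.6 kb under peaks in WT, against 22.3 and 25.2 kb in cKO in a locus of 132 kb, with a mean share of 17.5% ± 2.05 against 32.3% ± 5.38 for Wnt5a (SD, n = 4 libraries).

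Ligands known from the cortical hem were covered unevenly. Wnt8b, which marks the hem and the medial cortex (chromosome 19, 44493472 to 44514273), had 7.46 and 3.18 kb under peaks in WT, against 7.91 and 13.4 kb in cKO. Both cKO values lay above both WT values, the first by little (59.8% of loci tested had both cKO above both WT), and after centring they overlapped. For Wnt8b the spread over the libraries was the largest of the ligands (19.6% ± 10.3 of the locus, SD, n = 4). Wnt3a, the hem ligand required for hippocampal growth (chromosome 11, 59248036 to 59290751), had 6.26 and 5.78 kb under peaks in WT, against 4.76 and 7.40 kb in cKO. Wnt2b, also a hem ligand (chromosome 3, 104944805 to 104961709), had 5.03 and 2.41 kb under peaks in WT, against 3.61 and 6.13 kb in cKO. Wnt3a and Wnt2b overlapped between the genotypes, and their mean shares were 9.65% ± 1.74 and 11.6% ± 4.40 (SD, n = 4 libraries). Away from the hem, Wnt11, a non-canonical ligand of cell movements, stood at 15.7% ± 1.53, Wnt4, known from kidney and gonad development, at 10.9% ± 2.40, and Wnt16, known from bone, at 9.59% ± 0.789 of the locus (SD, n = 4 libraries). The least covered ligands were Wnt8a (2.098 and 0.394 kb under peaks in WT, against 0.665 and 2.46 kb in cKO, 5.46% ± 3.995), an early embryonic ligand, and Wnt2 (3.21% ± 0.132). Wnt2, a ligand of lung development, held 1 peak in each library, with 2.27 and 2.13 kb under peaks in WT, against 2.19 and 2.06 kb in cKO.

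Wnt genes lie in pairs on the chromosomes, and 4 pairs of the 39 had overlapping loci. Wnt6 and Wnt10a (chromosome 1) are 6696 bp apart, and the 13.3 kb they share held 6.43 and 6.23 kb of peak in WT and 5.25 and 5.35 kb in cKO. Most of the coverage of Wnt6 (9.13 and 8.61 kb in WT, 8.18 and 8.38 kb in cKO) was therefore also counted for Wnt10a, and their values are not independent. Wnt3 and Wnt9b (chromosome 11) overlap as annotated, and the 21.1 kb they share held 1.71 to 2.58 kb of peak. Wnt9b, a ligand of kidney tubules, had 7.13 and 7.05 kb under peaks in WT, against 6.43 and 10.5 kb in cKO in all, and Wnt3 had 5.22 and 5.17 kb under peaks in WT, against 5.89 and 6.96 kb in cKO. The stretches shared by Wnt1 and Wnt10b (chromosome 15, 8.35 kb) and by Wnt3a and Wnt9a (chromosome 11, 3.90 kb) held no peak in any library, so these pairs were measured on separate peaks. Wnt1, the midbrain ligand, had 2.83 and 3.15 kb under peaks in WT, against 3.52 and 6.53 kb in cKO, and Wnt10b, known from fat and bone, had 4.35 and 2.04 kb under peaks in WT, against 5.96 and 6.76 kb in cKO. Both had higher values in both cKO libraries than in either WT library, as did 59.8% of loci tested, and after centring on the library medians Wnt1 overlapped. Wnt9a, a ligand of joint formation, had 11.8 and 10.2 kb under peaks in WT, against 11.6 and 13.6 kb in cKO, which overlap.

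The secreted antagonists ranged from the most covered locus of all 39 to one of the least. Sfrp1, a Wnt-binding antagonist produced by cortical progenitors (chromosome 8, 23411383 to 23449632), had 31.8 and 28.1 kb under peaks in WT, against 31.7 and 31.3 kb in cKO of its 58.2 kb locus. Its share of 52.7% ± 3.06 (SD, n = 4 libraries) stood at percentile 99.2 of all loci. A single stretch of 19272 bp inside the gene (chromosome 8, 23419175 to 23438446) was covered in all 4 libraries, the longest such stretch in any of the 39 loci. Its relative Sfrp2 (chromosome 3, 83765750 to 83774314) had 7.05 and 7.06 kb under peaks in WT, against 7.08 and 6.42 kb in cKO, nearly equal in 3 libraries. Dkk3, a divergent member of the Dickkopf family (chromosome 7, 112116019 to 112159482), had 10.6 and 8.46 kb under peaks in WT, against 9.59 and 15.9 kb in cKO. Dkk1, which blocks Lrp5 and Lrp6, held 1 peak in each library (1.75 to 2.40 kb), and Dkk2 stood at 5.02% ± 0.695 of its locus (SD, n = 4 libraries), with 4.70 and 5.82 kb under peaks in WT, against 5.96 and 6.62 kb in cKO.

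R-spondins and their Lgr receptors, which raise Wnt responses by keeping Frizzled receptors at the surface, ranged from the least covered locus of the 39 to the upper part of all loci. Rspo2 (chromosome 15, 43020788 to 43171594) had 1.13 and 0 kb under peaks in WT, against 2.02 and 3.15 kb in cKO of a 171 kb locus. Rspo3, a hem gene, had 5.30 and 4.76 kb under peaks in WT, against 7.36 and 4.91 kb in cKO. Their shares stood at percentiles 26.4 (Rspo2) and 48.3 (Rspo3) of all loci, against 69.6 for Rspo1, 60.3 for Lgr4 and 48.8 for Lgr5. Rspo1 stood out in 1 library, with 9.53 kb in cKO replicate 2 against 2.80, 3.20 and 3.49 kb in WT replicates 1 and 2 and cKO replicate 1. Lgr5, a stem cell receptor and Wnt target (chromosome 10, 115450314 to 115587780), had 7.19 and 6.96 kb under peaks in WT, against 8.95 and 11.8 kb in cKO, and Lgr4 had 8.29% ± 1.03 of its locus covered (SD, n = 4 libraries). Of the co-receptors, Lrp6 had 21.0% ± 5.29 and Lrp5 11.0% ± 2.28 of the locus covered (SD, n = 4 libraries). In cKO replicate 2 Lrp6 reached 40.6 kb, against 25.1 to 26.3 kb in the other libraries.

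In the cytoplasm, Axin2 and Ctnnb1 differed widely from their partners. Axin2, a scaffold of the destruction complex and a target of canonical signalling (chromosome 11, 108917828 to 108950783), had 24.3 and 23.9 kb under peaks in WT, against 26.9 and 29.0 kb in cKO, 49.2% ± 4.45 of its locus (SD, n = 4 libraries). Its strongest peak lay in all 4 libraries at the far end of the gene span (108947243 to 108950435 in WT replicate 1). By the authors' fold enrichment that peak ranked 50 of 75314 in WT replicate 1, 148 of 66476 in WT replicate 2, 1053 of 80519 in cKO replicate 1 and 18 of 82683 in cKO replicate 2. Its fold enrichment there was 9.16, 6.68, 7.05 and 9.06, and ranks from lists of different length show no change. Ctnnb1, β-catenin itself (chromosome 9, 120933400 to 120960507), had 17.3 and 16.3 kb under peaks in WT, against 18.9 and 22.6 kb in cKO. Axin1, the constitutive scaffold, had 7.44% ± 1.81 and Apc 8.77% ± 1.84 of the locus covered (SD, n = 4 libraries). The Axin1 locus also takes in 5 other coding genes.

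Of the factors that take the signal to DNA, 3 were broadly marked. Tcf7l2 (chromosome 19, 55741797 to 55933659) had 59.8 and 49.3 kb under peaks in WT, against 54.7 and 70.8 kb in cKO over 212 kb, in 17 to 23 peaks per library. A stretch of 13371 bp over its first start (55740089 to 55753459) was covered in all 4 libraries. Tcf7l1, which acts mainly as a repressor, had 42.8 and 42.6 kb under peaks in WT, against 51.1 and 64.6 kb in cKO. Lef1 (chromosome 3, 131110297 to 131224357) had 29.0 and 28.2 kb under peaks in WT, against 32.3 and 34.3 kb in cKO. For Tcf7l1 and Lef1 both cKO values exceeded both WT values, as at 59.8% of loci tested. After centring on the library medians Tcf7l1 overlapped, and Lef1 lay lower in both cKO libraries. Tcf7, best known from T cells, held a single peak of 4.57 to 5.33 kb at its start in each library.

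Gene starts were annotated for 26 of the 39 genes (35 starts), and their promoters are shown for 5 genes that differ in how the start was marked. The sequences are the 250 bases before the start, 5′ to 3′ on the strand of the gene, from RefSeq on GRCm38.p6, with CpG dinucleotides in capitals. In Axin2 (chr11:108920099-108920348, plus strand), Ctnnb1 (chr9:120933150-120933399, plus strand) and Wnt3a (chr11:59290752-59291001, minus strand) the annotated start lay under no peak in any library. In Wnt2b (chr3:104961710-104961959, minus strand) and Tcf7l2 (chr19:55741560-55741809, plus strand) it lay under a peak in all 4. The Axin2 start used lies inside its gene span, and the upstream end of that span lay under a peak in all 4.
Axin2: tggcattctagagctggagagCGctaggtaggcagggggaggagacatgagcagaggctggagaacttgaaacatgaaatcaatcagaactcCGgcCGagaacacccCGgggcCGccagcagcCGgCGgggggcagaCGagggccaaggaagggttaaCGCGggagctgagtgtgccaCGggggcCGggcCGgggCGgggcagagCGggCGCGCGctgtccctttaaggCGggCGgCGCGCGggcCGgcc
Ctnnb1: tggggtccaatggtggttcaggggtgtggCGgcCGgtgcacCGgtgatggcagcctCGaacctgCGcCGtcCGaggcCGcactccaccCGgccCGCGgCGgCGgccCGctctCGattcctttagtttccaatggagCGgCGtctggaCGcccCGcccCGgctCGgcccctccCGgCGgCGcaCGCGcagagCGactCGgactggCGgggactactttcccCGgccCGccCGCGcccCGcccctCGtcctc
Wnt3a: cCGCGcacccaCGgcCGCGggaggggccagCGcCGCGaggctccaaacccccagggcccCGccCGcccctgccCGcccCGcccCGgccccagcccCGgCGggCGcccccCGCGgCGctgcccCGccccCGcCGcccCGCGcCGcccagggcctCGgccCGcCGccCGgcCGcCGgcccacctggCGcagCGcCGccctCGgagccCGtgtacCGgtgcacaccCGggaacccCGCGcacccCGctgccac
Wnt2b: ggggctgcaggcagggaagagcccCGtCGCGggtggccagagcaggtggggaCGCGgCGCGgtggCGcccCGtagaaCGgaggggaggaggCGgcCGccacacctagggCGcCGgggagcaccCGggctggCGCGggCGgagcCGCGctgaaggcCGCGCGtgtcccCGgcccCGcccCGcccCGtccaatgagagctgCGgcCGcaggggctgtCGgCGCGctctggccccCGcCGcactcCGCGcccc
Tcf7l2: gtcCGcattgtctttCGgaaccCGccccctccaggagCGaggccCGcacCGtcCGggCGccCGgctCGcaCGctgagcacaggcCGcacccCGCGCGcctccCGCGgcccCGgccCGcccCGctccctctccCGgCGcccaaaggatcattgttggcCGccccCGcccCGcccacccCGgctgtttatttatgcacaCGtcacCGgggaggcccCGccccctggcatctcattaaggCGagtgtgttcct
They hold 24, 35, 41, 36 and 30 CpG in this order, so both kinds of start were CpG-rich. Windows of 300 bases around the 35 starts had a median of 26 CpG, compared with 13 over all 21044 annotated starts. The TCF/LEF motif CTTTGAT, searched on both strands, was found in none of the 5. It was in 2 of the 35 windows (5.71%), 1 of Wnt11 and 1 of Wnt5b, compared with 3.25% of all windows.

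More starts of these genes lay under peaks than starts in general. A start was covered in all 4 libraries for 15 of the 26 genes (57.7%), compared with 21.9% of 17273 genes. A peak within 1 kb of a start in all 4 libraries was found for 23 of the 26 (88.5%), compared with 48.2%. Per library the starts of 18, 18, 17 and 22 of the 26 genes were covered, in WT replicates 1 and 2 and cKO replicates 1 and 2. Wnt6, Wnt9a, Wnt9b, Wnt3, Wnt2, Wnt16, Wnt11, Wnt2b, Sfrp2, Dkk1, Dkk2, Tcf7, Tcf7l2, and at some of their starts Lef1 and Wnt5b, made up the 15. They included Wnt2 and Dkk1 (percentiles 37.8 and 61.8 of all loci by covered share), whose single peaks lay over the start. The 3 genes with none of their annotated starts covered in any library were Axin2, Ctnnb1 and Wnt3a. In Axin2 and Ctnnb1, which are among the most covered loci, the annotated start itself lay outside the peaks. The nearest peak was 0.178 to 0.399 kb away for Axin2 and 0.139 to 0.165 kb for the first start of Ctnnb1. The Axin2 start used (108920349) lies inside its gene span. The upstream end of that span lay in a stretch covered in all 4 libraries (108917517 to 108919950). In Wnt3a the nearest peak was 0.134 to 6.64 kb away. The start of Wnt7a was covered in both cKO and in neither WT library, where the nearest peak lay 0.910 and 0.961 kb away. The start of Wnt4 was covered in both WT and in neither cKO library, with 0.168 and 0.175 kb to the nearest peak. How many of all starts show either pattern was not counted, so neither is read as a change. Of all starts, 32.6% and 27.5% lay under a peak in WT replicates 1 and 2, and 38.4% and 42.5% in cKO replicates 1 and 2. The members' higher CpG content moves with this count, and its part in it was not tested.

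**Figure D2:**
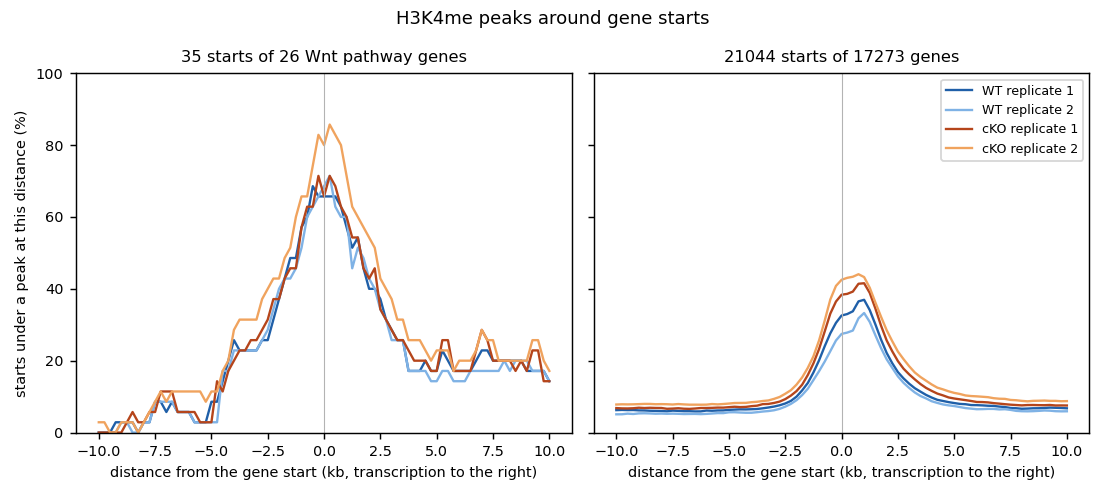
Percentage of gene starts under an H3K4me peak at each distance from the start, in kb along the direction of transcription, for 35 starts of 26 Wnt pathway genes (left) and 21044 starts of 17273 genes (right), with 1 line per library. At the start itself 65.7% to 80.0% of the members' starts and 27.5% to 42.5% of all starts were covered.

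At 2 kb on either side of the start, peaks were more frequent for the members than for genes in general. Further upstream the order varied with the distance. At 7.25 kb upstream 8.57% to 11.4% of the members' starts had a peak, compared with 5.21% to 7.93% of all starts. At 10 kb upstream 0% to 2.86% of the members' starts had a peak, compared with 5.08% to 7.80% of all starts. With 35 starts, such low shares rest on very few starts. At 10 kb downstream the values were 14.3% to 17.1% compared with 5.92% to 8.75%. At 2 kb upstream 37.1% to 42.9% of the 35 starts had a peak, compared with 9.005% to 13.3% of all starts, and at 2 kb downstream 40.0% to 54.3% compared with 20.4% to 28.5%. In all, 168 separate stretches covered in all 4 libraries lay in the 39 loci, with a median of 1443 bp, and 5.95% of them reached 5 kb. Over the genome the median was 1011 bp and 3.63% reached 5 kb. The 10 stretches of at least 5 kb lay in Sfrp1, Tcf7l2, Axin2, Ctnnb1, Wnt9a, Lef1, Wnt5a and Wnt5b, with 2 in Wnt7b. Those of Axin2 (8869 bp), Ctnnb1 (8602 bp) and Wnt7b (7767 and 6697 bp) were inside the gene.

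Between the genotypes, no member passed the test. limma called 0 of the 39 and 0 of the 14937 loci tested, in either direction (percent called 0; adjusted p of the members from 0.475 to 0.997). Without WT replicate 1, 119 loci were called higher and 5 lower, and without the filter on thin coverage 182 and 143, with no member among them. At an unadjusted p under 0.05, 6 members were lower in cKO, compared with 4.43% of loci tested, and 1 was higher, compared with 5.56%. In covered bases, both cKO libraries exceeded both WT libraries in 16 of 39 members (41.0%), compared with 59.8% of loci tested, and lay below them in 1 (Wnt6), compared with 1.23%. Differences below are on the log2(bases + 500) scale, cKO minus WT, after each library was centred on its median locus. Their median over the 39 was −0.17, with 31 negative (79.5%) and 8 positive, and over all loci tested −0.038, with 55.0% negative. Without centring the medians were 0.21 and 0.35, and 34 of the 39 were positive. The members' bases were thus higher in cKO by the median, but by less than those of the median locus. On the centred scale both cKO libraries lay below both WT libraries in 18 of 39, compared with 27.2% of loci tested, and above them in 2, compared with 17.3%. The counts at an unadjusted limma p under 0.05 changed with the setting. Without centring 0 members were lower and 5 higher, beside 10 and 3192 of all loci tested. With cyclic loess scaling 2 were lower and 1 higher, beside 360 and 1012. With 25 kb flanks 10 were lower and 2 higher, beside 987 and 871 of 16197 loci.

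The number of covered bases of a locus moved with this difference. Over loci with a mean of at least 5 kb covered the median was −0.17 for 28 members and −0.073 for all 7009 (62.5% negative, against 24 of the 28), and under 5 kb it was −0.098 for 11 members and 0.017 for all 7928. With cyclic loess scaling, which removes trends with coverage, the medians were −0.10 for the members and −0.0013 for all loci. Of the marker lists, the median was −0.26 for the dorsal telencephalon (9 of 9 negative), −0.24 for meninges (6 of 6), −0.20 for microglia (3 of 4), −0.17 for liver and muscle (2 of 2), −0.14 for hem and choroid plexus (4 of 7), −0.016 for erythroid genes (1 of 2) and 0.24 for endothelium and pericytes (2 of 5). Without centring every list median was positive (0.12 to 0.62), with 9 of 9 dorsal telencephalon and 4 of 6 meningeal markers positive. The part of coverage or of cell makeup in the members' difference was not tested. Medians by role were −0.31 for secreted antagonists (5 of 5 negative), −0.27 for ligands (15 of 19), −0.18 for TCF/LEF factors (3 of 4), −0.10 for surface receptors (3 of 4), −0.058 for cytoplasmic effectors (4 of 4) and 0.47 for R-spondins (1 of 3). The 5 negative role medians were positive without centring (0.075 to 0.33). The R-spondin median is the value of Rspo1, which was at −0.11 without cKO replicate 2. The median of the role was 0.21 without that library, 0.29 without WT replicate 1 and 1.05 without cKO replicate 1. The receptor median was 0.11 without cKO replicate 1, −0.027 without WT replicate 2 and −0.18 without cKO replicate 2, and that of cytoplasmic effectors −0.14 without cKO replicate 2.

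**Figure D3:**
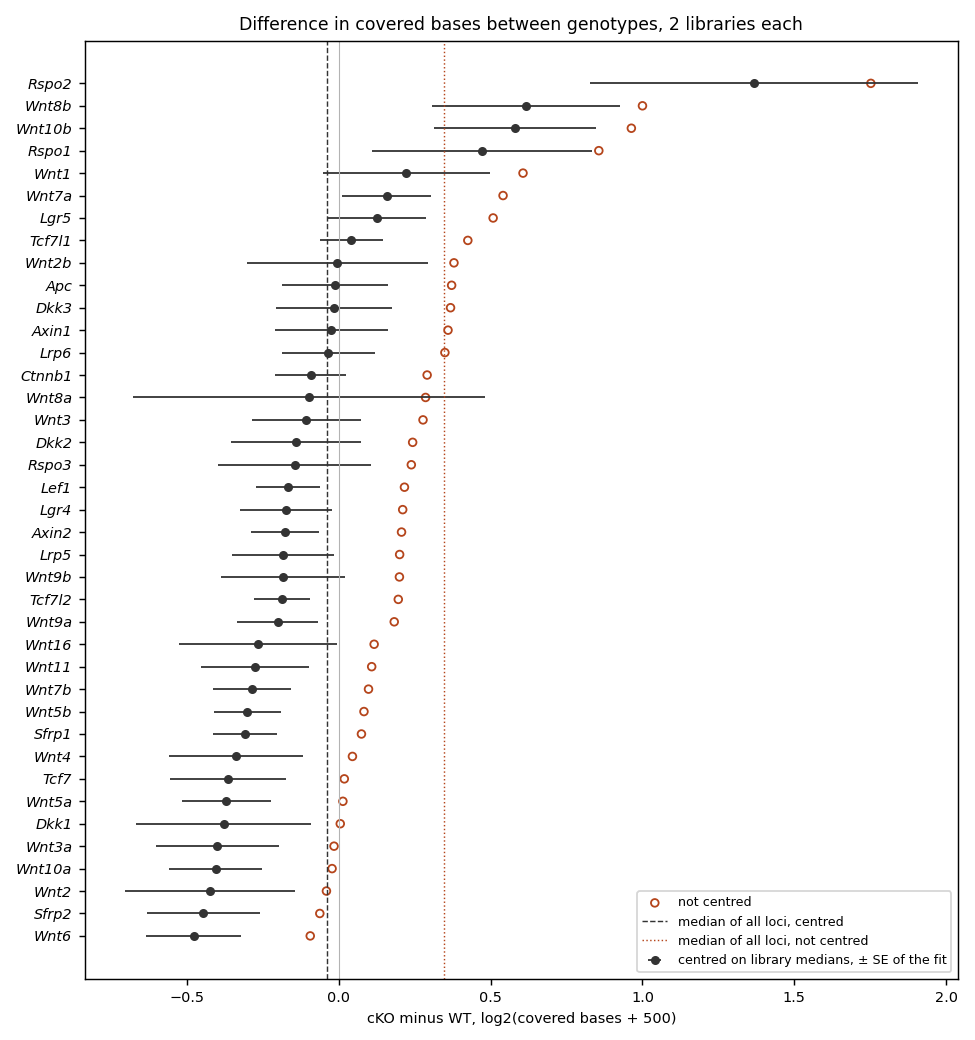
Difference in covered bases between genotypes (cKO minus WT, log2(covered bases + 500), horizontal axis) for the 39 loci, ordered by size. Filled points are centred on the library medians with bars of 1 SE from limma (2 libraries per genotype), open circles are not centred, and vertical lines mark the medians of all loci tested. On the centred scale 31 points lie below 0, from −0.48 at Wnt6, and 8 above, up to 1.37 at Rspo2.

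The 6 members lower at an unadjusted p under 0.05 were Wnt6, Sfrp2, Wnt10a, Wnt5a, Sfrp1 and Wnt5b. Besides Wnt10a, the Wnt6 locus overlaps the coding gene Prkag3, and the Wnt5b locus overlaps Fbxl14 and Gm52875. Wnt6 had the largest negative difference, −0.48 ± 0.16 (SE of the fit, 2 against 2 libraries; limma adjusted p = 0.475), and it stayed negative without centring (−0.094). It ranged from −0.89 (equal covered length) to −0.094 over the alternatives. Sfrp2 stood at −0.45 ± 0.19 (limma adjusted p = 0.492) and Wnt10a, which shares peaks with Wnt6, at −0.41 ± 0.15 (limma adjusted p = 0.475). Wnt10a was at −0.21 without cKO replicate 1, and Sfrp2 at −0.29 without cKO replicate 2. Wnt5a stood at −0.37 ± 0.15 (limma adjusted p = 0.484) and at −0.23 without cKO replicate 1, and it was positive without centring (0.014). The values of Sfrp1 (−0.31 ± 0.11) and Wnt5b (−0.30 ± 0.11) had a limma adjusted p of 0.475, and both turned positive without centring (0.075 and 0.083). Wnt2 had −0.42 ± 0.28 (limma adjusted p = 0.607), and Wnt3a −0.40 ± 0.20 (limma adjusted p = 0.529), or −0.19 without cKO replicate 1. Of these 8 genes, only Wnt6 had fewer bases in both cKO libraries than in either WT library. In the other 7 the bases of the genotypes overlapped. The lower bases of Wnt6 lay within the stretch that is also counted for Wnt10a. Outside that stretch, its locus had more covered bases in each cKO library than in either WT library.

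The positive end held Rspo2, Wnt8b and Wnt10b. The Wnt8b locus also overlaps the coding gene Sec31b, and that of Wnt10b overlaps Arf3 and LOC115488470. Covered bases there are not assigned to 1 gene. Rspo2 was at 1.37 ± 0.54 (SE; limma adjusted p = 0.482) on at most 3.15 kb of peak, and was at 0.62 without WT replicate 2, the library in which it had no peak, and at 0.57 with a pseudocount of 2000 bases. Wnt8b was at 0.62 ± 0.31 (limma adjusted p = 0.529), and at 0.16 without WT replicate 2 and 0.34 without cKO replicate 2. Wnt10b was at 0.58 ± 0.27 (limma adjusted p = 0.509), and at 0.22 without WT replicate 2. Leaving out WT replicate 2, the list that covers least, thus lowered the difference of all 3, and the cause was not tested. The hem and choroid plexus markers, which bear on Wnt8b, had a median covered share of 8.60% and 7.21% in WT and 8.18% and 10.3% in cKO, and their part in the difference was not tested.

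Likewise, none of the other members given by library passed. Wnt7b stood at −0.29 ± 0.13, Tcf7l2 at −0.19 ± 0.092, Axin2 at −0.18 ± 0.11, Lef1 at −0.17 ± 0.10 and Ctnnb1 at −0.092 ± 0.12 (SE; limma adjusted p between 0.503 and 0.786). All 5 were positive without centring (0.098, 0.20, 0.21, 0.22 and 0.29 in this order). Wnt7a (0.16 ± 0.15) and Lgr5 (0.12 ± 0.16) were positive, with limma adjusted p of 0.709 and 0.792. Dkk3 (−0.015 ± 0.19) and Wnt2b (−0.0040 ± 0.30) were the nearest to 0 among the genes always described. A p above the threshold does not show that the genotypes are alike at these loci. Wnt8a had the widest error (−0.098 ± 0.58). Of the remaining genes, Wnt9a stood at −0.20 ± 0.13, Wnt9b at −0.18 ± 0.20, Rspo3 at −0.14 ± 0.25, Dkk2 at −0.14 ± 0.21, Wnt3 at −0.11 ± 0.18 and Wnt1 at 0.22 ± 0.27 (SE; limma adjusted p between 0.607 and 0.848). Without centring the 5 negative ones were positive (0.18 to 0.28).

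Stretches of at least 200 bp that both libraries of 1 genotype covered, and that were free of peaks in the opposite genotype, numbered 7 for cKO and 1 for WT in the 39 loci. This is 2.37 and 0.339 per Mb, compared with 2.82 and 0.262 per Mb over all loci. The longest cKO-only region was in Wnt8b (chromosome 19, 44499467 to 44500959, 1493 bp), 5.995 kb downstream of its start. The authors' fold enrichment of the peaks there was 3.56 in cKO replicate 1 and 3.20 in cKO replicate 2. Tcf7l1 held 2 (825 and 378 bp), and Lgr5 (526 bp), Lef1 (474 bp), Wnt3 (255 bp) and Tcf7l2 (244 bp) held 1 each, all inside the gene. The WT-only region, of 495 bp, lay over the lower-coordinate edge of Apc (chromosome 18, 34220104 to 34220598). The counts turned with how much was called: with equal numbers of peaks they were 3 for cKO and 6 for WT, and with equal covered length 0 and 19. Leaving out WT replicate 1 or cKO replicate 1 gave 24 cKO-only regions each. There 1 genotype is judged on a single library, a looser rule, so these counts are not comparable with the 7.

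**Figure D4:**
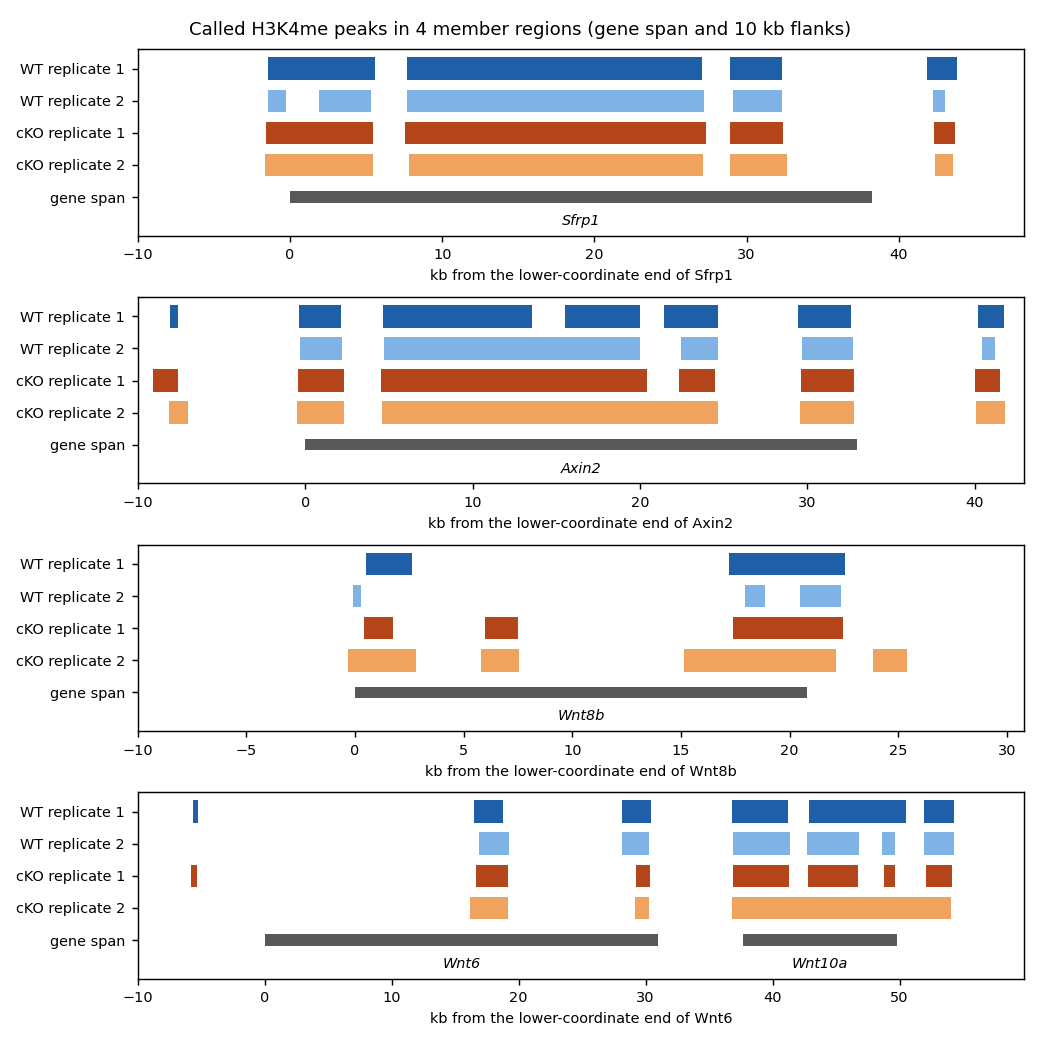
Called H3K4me peaks (coloured bars, 1 row per library) in 4 member regions, with gene spans as grey bars and distance in kb from the lower-coordinate end of the first named gene. Sfrp1 has a stretch of 19272 bp common to all 4 libraries. Wnt8b has a peak near 6 kb in both cKO libraries and in neither WT library. In the Wnt6 and Wnt10a region the separate peaks over Wnt10a are a single wide peak in cKO replicate 2.

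Among 71 other genes of the pathway, 67 were tested and limma called 0 (adjusted p from 0.407 to 0.987). At an unadjusted p under 0.05, 6 were higher and 7 lower in cKO, compared with 5.56% and 4.43% of all loci tested. The median difference was −0.077 with 64.2% negative, compared with −0.038 and 55.0% over all loci tested. Kremen1, a receptor for Dickkopf proteins, had the smallest p of them, with 10.5 and 9.25 kb under peaks in WT, against 19.8 and 22.4 kb in cKO (0.68 ± 0.12, SE; limma adjusted p = 0.407). The atypical receptor Ror1 had 13.2 and 7.14 kb under peaks in WT, against 18.03 and 23.9 kb in cKO (0.67 ± 0.21; limma adjusted p = 0.468), while Ror2 was at −0.21 and Fzd1 at −0.65. In the cytoplasm Nkd2 (1.85), Csnk1a1 (0.51) and Amer1 (0.95) were positive, the first and last on at most 5.38 and 2.40 kb of peak. Nuclear cofactors had the negative values of Tle3 (−0.27), Bcl9l (−0.30) and Bcl9 (−0.24), and the planar polarity genes Celsr1 (−0.29), Vangl2 (−0.26) and Dact1 (1.42) differed in sign. All 7 of the listed targets had negative differences (median −0.27), with Ccnd1 at −0.45, Emx2 at −0.28 and Sp5 at −0.36. The targets had a median covered share of 42.8%. Of all loci tested with a mean of at least 5 kb covered, 62.5% were negative, and the part of coverage was not tested. Emx2 is also among the markers of the dorsal telencephalon. The antagonists Sostdc1 and Draxin stood at −0.68 and −0.17, and Wls, the carrier of Wnts to the surface, and Notum, which removes their lipid, at 0.27 and 0.15. Without centring Celsr1, Tle3, Bcl9l, Bcl9, Vangl2, Ror2, Emx2, Sp5 and Draxin turned positive (0.027 to 0.22), while Ccnd1 (−0.064), Fzd1 (−0.27) and Sostdc1 (−0.30) did not.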

How the data were processed

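The H3K4me libraries of 2 WT and 2 cKO cortex samples were grouped by their titles. Inputs were not used here. The authors deposited a broad peak list for each library, not pooled. The submitters' processing notes list FastQC, cutadapt, Bowtie2 (2.2.8), MACS2 (2.1.1) and mm10. How peaks were called and whether inputs served as background is not given in the sources used here. Per peak, the deposited columns hold a score, a fold enrichment (a ratio over the caller's background), and −log10 p and −log10 q values as the authors' caller wrote them. They served only to describe, rank or filter peaks within a list. There are no read counts, hence no counting intervals.

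Peaks on chromosomes 1 to 19 and X were kept, since no list had a Y peak. Bases under merged peaks were counted per locus in Python 3.11.15 using pandas 2.3.3 and numpy 2.4.6 (200 simulated checks, 0 mismatches). Spans and starts came from RefSeq tables on GRCm38.p6. Loci averaging under 1000 covered bases were dropped. Values on the scale log2(bases + 500) were centred on library medians and compared with limma 3.58.1 (R 4.3.3, trended eBayes, 2 against 2 libraries, no replicate block). P-values were adjusted over all 14937 loci by Benjamini-Hochberg, called under 0.05. In simulations over 14937 loci, changes of 0.5 (log2) were recovered at 0 of 50 loci and of 1 at 11. Changes of 2 and of 4 were recovered at 50, beside 6 false calls. The simulation gave every locus the same spread, unlike the real loci, so these rates do not give the power of the real comparison. There the largest difference was 2.54, and the smallest limma adjusted p was 0.407. Alternatives varied the filter, pseudocount, scaling, peak threshold, peak number, covered length, flanks, block and libraries.

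Members and gene lists were chosen with earlier results of these data known. By rule, values in every library were given for 27 members: those at an unadjusted p under 0.05, the 3 largest differences each way, the 5 most and the 5 least covered loci, pairs that share peaks, and 13 genes always given. Of the other pathway genes, the 3 with the smallest p in each role were named. Further members were named after their values were seen.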

Additional observations from a re-analysis of the deposited data

How the results depend on the processing

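No member was called in either direction under any alternative run. The paired fit, with the replicate number as a block, also called 0 loci (at an unadjusted p under 0.05 it had 781 higher and 449 lower). The labels share only a number, and deviations of same-numbered libraries correlated at r = −0.0962. Over all loci, leaving out the filter on thin coverage raised the calls to 182 higher and 143 lower. With 1 library left out they were 0 to 119 higher and 0 to 5 lower, the most without WT replicate 1. The members' median difference was 0.21 without centring and −0.22 to −0.11 with 1 library left out. Their median covered share of 14.0% was 17.9% over the gene span alone and 12.7% to 15.4% with 1 library left out. Genes with a start covered in every library used numbered 23 when a peak within 1 kb counted, and 15 to 16 with 1 library left out. Both rules ask for less than the main one, so by construction neither count could fall below 15. WT-only regions numbered 2 with stricter peaks, 6 with equal peak numbers, 19 with equal covered length and 3 to 9 with 1 library left out. cKO-only regions numbered 3 with equal peak numbers, 0 with equal covered length and 10 to 24 with 1 library left out. With 1 library left out the rule for a region asks for less, so those counts do not measure stability.

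Of 400 differences recomputed for 27 members, 354 kept their sign. These include the 27 of the paired fit, which equal the main differences by construction and could not change sign. Without centring, these turned positive: Wnt5a (0.014), Sfrp1 (0.075), Wnt5b (0.083), Wnt7b (0.098), Wnt9a (0.18), Tcf7l2 (0.20), Wnt9b (0.20), Axin2 (0.21), Lef1 (0.22), Rspo3 (0.24), Dkk2 (0.24), Wnt3 (0.28), Wnt8a (0.29), Ctnnb1 (0.29), Dkk3 (0.37) and Wnt2b (0.38). With equal covered length, those of the opposite sign were Wnt5b (0.099), Axin2 (0.10), Lef1 (0.14), Dkk2 (0.21), Wnt3 (0.048), Ctnnb1 (0.16), Wnt2b (0.34), Lgr5 (−0.68) and Wnt1 (−0.040). Stricter peaks reversed Rspo3 (0.26) and Dkk3 (0.10), and equal peak numbers Wnt2b (0.073). A pseudocount of 100 bases reversed Wnt8a (0.010) and Wnt2b (0.0051), 2000 bases Dkk3 (0.032), and cyclic loess scaling Dkk3 (0.059) and Wnt2b (0.014). The gene span alone reversed Wnt3 (0.054) and Dkk3 (0.024), and 25 kb flanks Wnt7a (−0.078). With a library left out, differences with a changed sign ranged as follows: Wnt9b (−0.43 to 0.061), Rspo3 (−0.50 to 0.21), Dkk2 (−0.39 to 0.10), Wnt8a (−0.76 to 0.57), Dkk3 (−0.28 to 0.25), Wnt2b (−0.36 to 0.35) and Wnt1 (−0.093 to 0.54). Role medians without centring were 0.12 for ligands, 0.075 for antagonists, 0.28 for receptors, 0.33 for cytoplasmic effectors and 0.21 for TCF/LEF factors, and that of receptors was −0.18 to 0.11 with 1 library left out. The cause of these changes was not tested. Some loci fell under the filter and gave no value: Rspo2 and Wnt8a with equal covered length, Wnt8a with equal peak numbers, and Dkk1, Wnt8a and Wnt2b over the gene span alone. The regions under other peak settings or fewer libraries, the starts with fewer libraries and the role medians were chosen after seeing the data. With 2 libraries per genotype and unknown depth, differences may have been missed, and not only small ones. In the main fit no locus was called, although the largest difference was 2.54.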
